A study of Mus musculus with 2 samples.

Results

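The 10 genes followed here across mouse embryos were Fos, Fosb, Jun, Junb, Egr1, Atf3, Hspa1a, Hspa1b, Dusp1 and Ier2, a set of immediate early and dissociation stress genes, out of the 21937 gene features of the deposited count matrix. They were found by symbol, and their unique molecular identifiers (UMIs, which count captured RNA molecules) were summed within each deposited cell type and each cell suspension. The list was drawn up to set founders against F1, so the values of these genes in that comparison are a description and carry no test.

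The samples were transgenic embryos of stage E11.5 that carried EGFP under the CAG promoter, integrated by piggyBac and linked to a DNA barcode. Cells came from 4 suspensions: F0_8 and F0_9, each 1 founder embryo, F1_1, a single F1 embryo, and F1_mix, a pseudo-mosaic made by mixing cells of different F1 embryos. All 4 groups were transgenic, all were digested with trypsin, labelled with multiplexing oligonucleotides, sorted to remove debris and run in a single droplet library, and no untreated or undissociated cells were among them. With 2 suspensions a generation, each comparison rests on 2 against 2, and generation cannot be told apart from any other property that the 2 founder embryos shared.

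Immediate early genes are transcribed within minutes of a stimulus without new protein synthesis, mostly through serum response factor and CREB bound at their promoters. Fos, Fosb, Jun and Junb encode subunits of the AP-1 transcription factor, Egr1 a zinc finger factor, Atf3 a stress-induced bZIP factor, Ier2 a small nuclear regulator, and Dusp1 a phosphatase that switches MAP kinases off again. Hspa1a and Hspa1b encode the inducible HSP70 chaperones, which heat shock factor switches on. Enzymatic dissociation of living tissue is known to induce this group, which is why it is watched in single-cell data.

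The RefSeq promoter windows (GRCm38.p6, 250 bases before to 50 after the gene's start, in the direction of the gene) are shown for the 4 AP-1 genes and Dusp1, which are compared within cells further on, and for the near-identical pair Hspa1a and Hspa1b. Capitals mark TGACG, the core of the cAMP response element, and GAANNTTC, the core of the heat shock element, on either strand. The windows are chr12:85473640-85473939 (plus strand) for Fos, chr7:19309996-19310295 (minus) for Fosb, chr8:84978699-84978998 (minus) for Junb, chr17:26508423-26508722 (minus) for Dusp1, chr4:95052173-95052472 (minus) for Jun, chr17:34972107-34972406 (minus) for Hspa1a and chr17:34959189-34959488 (minus) for Hspa1b.
Fos: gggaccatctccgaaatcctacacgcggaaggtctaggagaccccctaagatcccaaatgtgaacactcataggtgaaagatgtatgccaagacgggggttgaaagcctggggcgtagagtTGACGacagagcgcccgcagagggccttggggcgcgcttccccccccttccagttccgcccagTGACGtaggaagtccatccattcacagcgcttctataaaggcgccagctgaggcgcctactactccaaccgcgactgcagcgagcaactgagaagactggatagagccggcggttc
Fosb: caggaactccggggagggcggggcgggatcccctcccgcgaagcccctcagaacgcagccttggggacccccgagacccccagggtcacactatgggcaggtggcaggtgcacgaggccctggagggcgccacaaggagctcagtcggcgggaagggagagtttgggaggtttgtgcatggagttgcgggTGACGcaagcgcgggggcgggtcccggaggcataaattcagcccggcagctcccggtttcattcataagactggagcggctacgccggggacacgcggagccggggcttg
Junb: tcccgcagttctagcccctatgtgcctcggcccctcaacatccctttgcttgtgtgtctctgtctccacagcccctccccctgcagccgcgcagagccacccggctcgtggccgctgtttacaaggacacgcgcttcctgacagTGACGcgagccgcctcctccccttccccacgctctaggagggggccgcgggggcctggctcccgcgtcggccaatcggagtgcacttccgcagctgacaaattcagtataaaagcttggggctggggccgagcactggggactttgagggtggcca
Dusp1: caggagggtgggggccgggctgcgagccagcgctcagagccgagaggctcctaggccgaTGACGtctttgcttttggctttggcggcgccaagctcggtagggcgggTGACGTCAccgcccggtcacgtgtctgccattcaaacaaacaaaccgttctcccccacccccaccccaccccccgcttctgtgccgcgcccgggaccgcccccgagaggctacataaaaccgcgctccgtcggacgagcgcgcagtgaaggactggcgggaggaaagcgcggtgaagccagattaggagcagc
Jun: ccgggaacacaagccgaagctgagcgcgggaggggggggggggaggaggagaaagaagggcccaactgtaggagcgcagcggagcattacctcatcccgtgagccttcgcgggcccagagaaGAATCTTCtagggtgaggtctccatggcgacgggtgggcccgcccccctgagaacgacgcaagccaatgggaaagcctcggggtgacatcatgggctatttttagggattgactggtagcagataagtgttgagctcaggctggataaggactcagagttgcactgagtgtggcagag
Hspa1a: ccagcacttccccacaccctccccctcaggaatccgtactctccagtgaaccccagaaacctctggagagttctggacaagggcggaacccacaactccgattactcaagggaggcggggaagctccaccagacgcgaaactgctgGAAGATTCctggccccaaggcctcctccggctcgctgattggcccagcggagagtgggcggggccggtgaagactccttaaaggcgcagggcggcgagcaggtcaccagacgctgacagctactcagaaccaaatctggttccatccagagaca
Hspa1b: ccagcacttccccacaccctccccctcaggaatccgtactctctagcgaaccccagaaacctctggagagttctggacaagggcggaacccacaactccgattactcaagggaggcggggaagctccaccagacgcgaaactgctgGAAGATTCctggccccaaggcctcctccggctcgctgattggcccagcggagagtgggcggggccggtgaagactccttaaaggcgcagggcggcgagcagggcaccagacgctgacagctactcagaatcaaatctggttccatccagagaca

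The table matched 8 of the 10 members. TGACG lay in 5 of the 8 windows, those of Fos, Fosb, Junb, Atf3 and Dusp1, against 20.8% of 32851 promoter windows of the same length. It started 66 bases before the start in Fos (with a further copy at 129), 60 before in Fosb and 106 before in Junb. Dusp1 alone held the full palindrome TGACGTCA, 143 bases before its start, which overlaps 2 of its TGACG matches and which 1.79% of all windows held. GAANNTTC lay in the windows of Jun, Hspa1a and Hspa1b, 128 bases before the start in Jun and 104 in both Hspa1 genes, against 7.86% of all windows. No member window held the serum response element (CArG box, 1.63% of all windows), the AP-1 site TGANTCA (7.81%) or the arrangement TTCNNGAA (8.52%), which says only that these letters are not in this stretch. The Egr1 site GCGNGGGCG (5.55% of windows) was in Fosb, TATAAA (13.6%) in Fos and Junb, and CCAAT (37.4%) in Jun, Junb, Atf3, Hspa1a and Hspa1b. These matches are letters found by search with motifs chosen after the earlier results were known, not measured sites.

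The 5678 barcodes with a deposited cell type (1599, 1318, 1310 and 1451 in F0_8, F0_9, F1_1 and F1_mix) held between 16052917 and 19160116 gene UMIs a suspension, with medians of 10880 to 13267 a cell, and no barcode was shared between suspensions. Of 16 types, 13 had at least 20 cells in every suspension. Erythroblast, Erythrocyte and Hematoendothelial Progenitor/Endothelium did not. Another 4 types (Hepatocyte, Foregut, Midgut and Endodermal Progenitor) were shallow, with median depths of 722 to 1674 UMIs and 17.8% to 50.7% mitochondrial UMIs, so the 9 deep types carry most of what follows. Labels were not all borne out by markers. Summed liver markers reached only 0.0355 to 0.0587 UMIs per 10000 in the type labelled Hepatocyte, epithelial markers at most 0.119 in Foregut, and Neuroectoderm/Glia held neuron markers at 71.4 to 88.3, so these names are used as labels only. Levels below are UMIs per 10000 gene UMIs, intervals are exact 95% Poisson or binomial intervals that cover counting error only, and a lower level in a suspension can mean fewer expressing cells or less RNA in each.

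Across cell types the members were high in connective and epithelial cells and in the mixed type Hematoendothelial Progenitor/Endothelium, and low in neurons and red blood cells. Summed over the 10 genes, the level was 19.4 ± 2.82 (SD over the 4 suspensions) in Hematoendothelial Progenitor/Endothelium, 12.3 ± 2.21 in Chondrocyte, 12.0 ± 3.43 in Epithelial Cell and 10.9 ± 2.10 in Gut Mesenchyme/Amniotic Mesoderm. At the other end of the 9 deep types it was 2.31 ± 0.405 in Neuroectoderm/Glia and 2.24 ± 0.124 in CNS Neuron. Erythroblast stood at 2.63 ± 0.614 and Erythrocyte, the lowest of the 16 types, at 0.919 ± 0.593. The lowest suspension of the first of these, at 15.9, was above every suspension of the other types except F0_9 in Epithelial Cell, at 16.2. From Chondrocyte down to Mesodermal Progenitor each range overlapped with that of the next type in the order.

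The 3 neural types (Neuronal Progenitor, CNS Neuron and Neuroectoderm/Glia) had less of 6 of the 7 well-detected members than the other 6 deep types in every suspension. For Fos the mean over the other 6 types was 3.79 to 8.96 times the mean over the neural types, for Fosb 3.99 to 11.6 times, for Egr1 3.87 to 5.80 times, for Jun 2.25 to 4.23 times, for Junb 2.03 to 5.49 times and for Ier2 2.34 to 3.74 times. Dusp1 went the other way by the mean over types. Its mean level was 0.356, 0.432, 0.442 and 0.411 in the neural types of F0_8, F0_9, F1_1 and F1_mix and 0.314, 0.303, 0.252 and 0.282 in the other deep types. Neuroectoderm/Glia, at 0.568 ± 0.0974, took place 2 of 16 types for this phosphatase and place 13 for the summed members. CNS Neuron, at 0.408 ± 0.0575, came next, whereas Neuronal Progenitor, at 0.255 ± 0.0682, lay below 4 of the other 6 deep types.

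Hematoendothelial Progenitor/Endothelium held 76 cells of mixed kinds, and the members did not sit evenly in it. In 51 of its cells macrophage markers (such as Csf1r and C1qa) outweighed endothelial ones, and in 25 the endothelial markers (such as Pecam1 and Cdh5) outweighed those of macrophages. Fos stood at 7.25 in the former and 0.580 in the latter, Egr1 at 1.86 and 0.193, Atf3 at 1.31 and 0.266, and Dusp1 at 2.08 and 0.749. Jun was 6.38 and 2.0 and Junb 1.56 and 0.700. Ier2, at 3.22 and 2.56, and Fosb, at 1.19 and 0.749, were closer to even, and the order turned in F0_9 for Ier2 (3.39 and 3.96) and in F1_mix for Fosb (1.21 and 1.57). Taken by suspension, Fos was 8.59, 6.97, 5.68 and 7.97 in the macrophage-marked cells of F0_8, F0_9, F1_1 and F1_mix and 0.718, 0.198, 0.411 and 1.05 in the endothelium-marked cells, so the 2 sets did not overlap. Atf3 was scarce elsewhere: 143 of its 286 UMIs came from these 76 cells, of which 86 from the macrophage-marked cells of F0_9. By suspension, Atf3 was 0.781, 2.19, 0.104 and 1.21 in the macrophage-marked cells and 0.287, 0.396, 0.205 and 0.131 in the endothelium-marked cells, so that F1_1, on 2 UMIs in each, went the other way. Erythroid markers reached 393.8 in this type in F1_1 and 1.10 to 1.28 in the other suspensions, and their part in these levels was not tested.

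Egr1 differed most evenly between the generations. This growth factor responsive gene (GRCm38.p6 RefSeq annotation) gave 1343 and 1211 UMIs in the founders F0_8 and F0_9 and 645 and 824 in F1_1 and F1_mix, which is 0.768, 0.754, 0.396 and 0.430 per 10000. Both founders were above both F1 suspensions in 8 of the 9 deep types. The generations also differed in depth and RNA composition: the median UMIs a cell were lower in both founders in 7 of these types, the mitochondrial share was higher in 6, the ribosomal share was lower in 5, and the other types overlapped. Their part in the levels of Egr1 and the other members was not tested. Over all genes and types that passed the filter on low counts, 20.8% of pairs were above in this way and 19.8% below, and since the list was chosen on this contrast nothing is read from the difference. In the ninth type, Neuroectoderm/Glia, the Egr1 values overlapped. The founder mean over the F1 mean had a median of 1.69 over the deep types, with a range of 1.24 to 2.42.

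In Mesodermal Progenitor, Egr1 stood at 0.899 (F0_8) and 1.05 (F0_9) against 0.368 (F1_1) and 0.438 (F1_mix), a ratio of 2.42. In Myoblast/Cardiomyocyte it was 0.898 and 0.788 against 0.404 and 0.315, a ratio of 2.35; erythroid markers stood at 73.4 in F0_9 there and at 1.08 to 1.20 in the other suspensions, and their part was not tested. In Epithelial Cell it was 2.11 and 1.83 against 0.721 and 1.05, a ratio of 2.22. In all 3 types the gap between the generations exceeded the gap between the suspensions of each. Gut Mesenchyme/Amniotic Mesoderm followed with 1.40 and 1.43 against 0.695 and 0.860. The same order held at low levels in 2 of the 3 neural types, where Neuronal Progenitor had 0.391 and 0.407 against 0.211 and 0.301, and CNS Neuron 0.185 and 0.127 against 0.0764 and 0.109. In Chondrocyte the separation rested mainly on F1_1, at 0.640, since F1_mix reached 1.24 beside founders at 1.41 and 1.52.

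**Figure D1:**
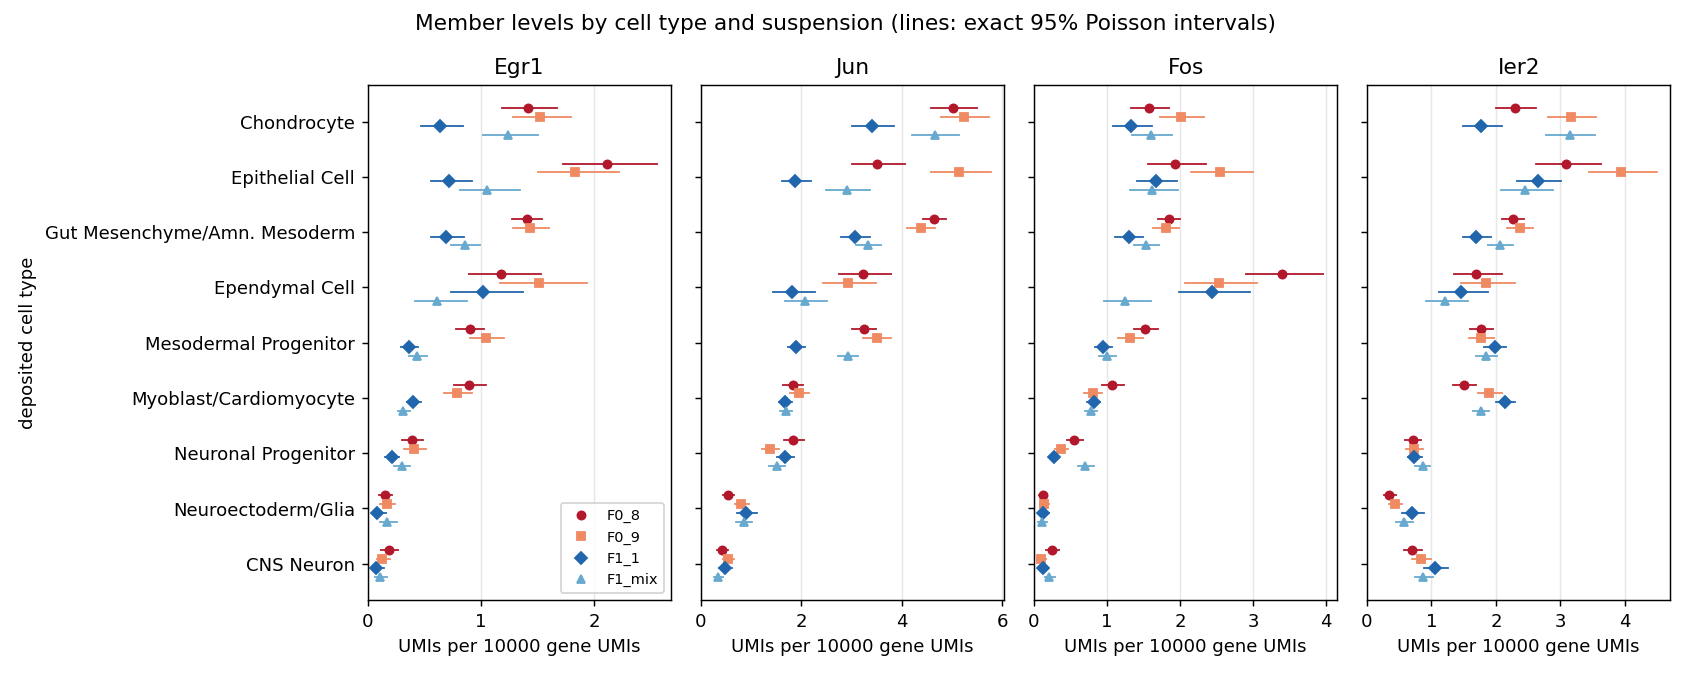
Levels of Egr1, Jun, Fos and Ier2 (UMIs per 10000 gene UMIs, x axis) in the 9 deep cell types (y axis), 1 point a suspension with its exact 95% Poisson interval; red and orange points are founders, blue points F1. The red and orange points lie to the right of the blue ones for Egr1 in 8 of 9 types, while for Ier2 they lie to the left in 4 and to the right in 3.

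By level over all 4 suspensions, Egr1 was highest in Epithelial Cell (1.43 ± 0.650), Hematoendothelial Progenitor/Endothelium (1.36 ± 0.229) and Chondrocyte (1.20 ± 0.393), then in Gut Mesenchyme/Amniotic Mesoderm (1.10 ± 0.376), Ependymal Cell (1.08 ± 0.373), Mesodermal Progenitor (0.688 ± 0.336), Myoblast/Cardiomyocyte (0.601 ± 0.285) and Hepatocyte (0.546 ± 0.225). It was lower in Foregut (0.337 ± 0.205), Neuronal Progenitor (0.327 ± 0.0906), Midgut (0.265 ± 0.0497), Endodermal Progenitor (0.230 ± 0.206), Neuroectoderm/Glia (0.144 ± 0.0431), CNS Neuron (0.124 ± 0.0456), Erythrocyte (0.0643 ± 0.0892) and Erythroblast (0.0400 ± 0.0211). The ranges over suspensions overlapped between every pair of neighbours in this order. In Foregut, Midgut, Endodermal Progenitor and Erythrocyte these levels rest on 5 to 11 UMIs.

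Among the AP-1 genes, Jun separated in the most deep types. Jun (GRCm38.p6, chromosome 4, 95049036 to 95052222) had both founders above both F1 suspensions in 6 of the 9 deep types and below in 1, with a median ratio of 1.27. In Gut Mesenchyme/Amniotic Mesoderm it was 4.65 and 4.38 in F0_8 and F0_9 against 3.07 and 3.34 in F1_1 and F1_mix, and in Epithelial Cell 3.51 and 5.15 against 1.88 and 2.92. The exception was Neuroectoderm/Glia, with founders at 0.543 and 0.810 below F1 at 0.909 and 0.861.

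Fos (chromosome 12, 85473890 to 85477274) was above F1 in both founders in 5 deep types and below in none, and its values overlapped in the other 4. In Mesodermal Progenitor it stood at 1.53 and 1.32 against 0.948 and 1.0, and in Gut Mesenchyme/Amniotic Mesoderm at 1.85 and 1.80 against 1.30 and 1.54. In Ependymal Cell, where Fos was highest among the fitted types, the suspensions spread widely, at 3.40, 2.53, 2.44 and 1.25. The summed level of the 4 liver markers varied there too, at 31.5, 6.46, 14.5 and 0.0205 in the same order of suspensions, and its part in the spread was not tested.

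Junb (chromosome 8, 84976909 to 84978748) separated upward in 4 deep types and downward in 1. It stood at 0.310 and 0.395 against 0.0931 and 0.227 in Gut Mesenchyme/Amniotic Mesoderm, whereas Neuroectoderm/Glia had 0.0914 and 0.0521 against 0.182 and 0.139. Fosb (chromosome 7, 19302696 to 19310118) had no common direction, with 2 deep types above, 2 below and 5 overlapping. Its 2 lower types were neural: CNS Neuron, with 0.107 and 0.0302 against 0.137 and 0.195, and Neuroectoderm/Glia, with 0.00538 and 0.0463 against 0.101 and 0.0802, although the latter rests on 9 founder and 21 F1 UMIs. In Epithelial Cell it was 1.45 and 1.83 against 1.11 and 0.906.

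Ier2 (chromosome 8, 84661331 to 84662852) was divided by cell type. Both founders were above both F1 suspensions in 3 deep types and below in 4, with a median ratio of 0.925. The upward types were Ependymal Cell, Gut Mesenchyme/Amniotic Mesoderm with founders at 2.26 and 2.37 over F1 at 1.70 and 2.06, and Epithelial Cell with 3.09 and 3.94 over 2.65 and 2.45. The downward types were the 3 neural ones and Mesodermal Progenitor, and in Neuroectoderm/Glia the values were 0.349 and 0.434 against 0.697 and 0.569. Over all cells Ier2 overlapped, at 1.36, 1.51, 1.59 and 1.48.

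Dusp1 (chromosome 17, 26505591 to 26508472), the feedback phosphatase, was above in 2 deep types, below in 1 and overlapping in 6, with a median ratio of 1.01. It was 0.374 and 0.425 against 0.193 and 0.250 in Gut Mesenchyme/Amniotic Mesoderm, and 0.214 and 0.223 against 0.315 and 0.255 in Mesodermal Progenitor. Egr1 was higher in the founders in both of these types. Atf3 (chromosome 1, 191170296 to 191183333) gave 50, 118, 45 and 73 UMIs in F0_8, F0_9, F1_1 and F1_mix, and overlapped in 8 of 9 deep types. In the ninth, Chondrocyte, the founders held 3 UMIs together and F1 17.

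The inducible chaperone genes gave very few UMIs. Hspa1a (chromosome 17, 34969359 to 34972156) gave 16, 14, 16 and 10 UMIs in the 4 suspensions and Hspa1b (chromosome 17, 34956429 to 34959238) 14, 10, 10 and 9, of at least 16052917 gene UMIs in each. At most 1.06% of the cells of a suspension had an Hspa1a UMI. Their promoter windows share 296 of 300 bases and the coding sequences 99.4% of 1929 aligned positions, whereas what follows the stop codon shares only 47.7% of aligned positions in the reference transcripts. How the reads of this pair were divided between its genes, and how many were left uncounted, is therefore uncertain, and no direction is given for either.

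**Figure D2:**
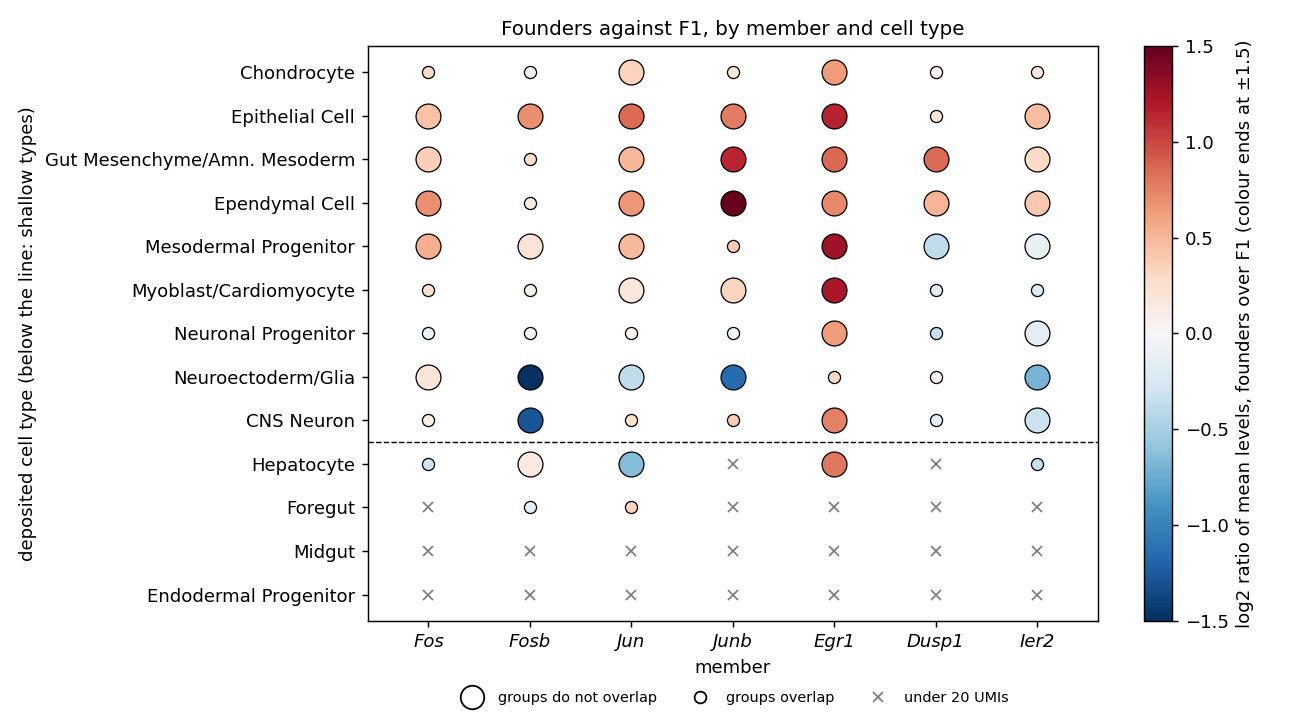
Log2 ratio of the founder mean to the F1 mean (colour) for the 7 well-detected members (x axis) in the 13 fitted cell types (y axis); large circles mark pairs in which the 2 founders and the 2 F1 suspensions do not overlap, crosses pairs with under 20 UMIs. Every Egr1 circle is red, and large blue circles are most frequent in the neural rows.

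Counted over all 10 members and 13 types, both founders lay above both F1 suspensions in 41 of 130 pairs, below in 20 and overlapped in 69. In the 9 deep types the counts were 34, 13 and 43 of 90. Outside the neural types 30 of 60 deep pairs were above and 5 below, and in the neural types 4 of 30 were above and 8 below. Hspa1a and Hspa1b, whose pairs rest on 0 to 5 UMIs a generation where they separate, add 4 above and 3 below to these counts. Without them both founders lay above in 37 of 104 pairs and below in 17, outside the neural types in 27 of 48 and 3, and in the neural types in 3 of 24 and 7. This division of the types and the count without the Hspa1 pair were chosen after the values were seen, and neither was tested. Only 7 members passed the filter on low counts in any type, giving 69 pairs, of which 32 were above and 10 below. Over all 99241 pairs of gene and type that passed the same filter, the shares were the 20.8% and 19.8% given above. By neural type, 2787 of 10668 genes were above and 2013 below in Neuronal Progenitor. In CNS Neuron 2089 and 1827 of 9916 were so, and in Neuroectoderm/Glia 2214 and 2180 of 9901. Nothing is read from the neural counts of the members beside these.

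In the edgeR quasi-likelihood fit over all genes, 4 pairs of member and type were past an adjusted p of 0.05, all higher in the founders: Fos and Egr1 in Mesodermal Progenitor, and Jun and Egr1 in Gut Mesenchyme/Amniotic Mesoderm. Of all pairs tested, 0.492% were called higher and 0.26% lower. Since the list was chosen on this contrast, the 4 calls are a description and nothing is read from their number. The log2 fold changes ranged over the 10 alternative settings from 1.14 to 1.37 for Egr1 in Mesodermal Progenitor and from 0.71 to 1.0 for Egr1 in Gut Mesenchyme/Amniotic Mesoderm. Without F0_8, the calls of Fos in the former type and of Jun and Egr1 in the latter were lost, and that of Egr1 in the former remained. By DESeq2 the call of Fos in Mesodermal Progenitor was lost (adjusted p = 0.394) and the other 3 remained.

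The mean share of cells with an Egr1 UMI, after every cell was thinned to 5000 UMIs, was also higher in both founders. Over the 9 deep types it was 28.5% in F0_8 and 30.3% in F0_9, against 15.7% in F1_1 and 17.3% in F1_mix. Type by type, both founders were above both F1 suspensions by share in 6 of the 9 and overlapped in 3, which include CNS Neuron and Ependymal Cell, where the levels had separated. In Mesodermal Progenitor it was 30.0% and 35.4% against 12.5% and 12.1%, and in CNS Neuron, where the gene was near its lowest, 9.17% and 3.38% against 2.83% and 3.55%. For Fos the mean shares were 33.8% and 30.9% against 27.9% and 27.3%, for Jun 47.7% and 48.5% against 42.8% and 44.8%, and for Junb 10.6% and 11.3% against 7.95% and 7.18%. These means hid differences between types: by share, both founders were above in 3 deep types and below in none for Fos, above in 2 and below in 2 for Jun, and above in 3 and below in 2 for Junb. No such count by share of cells was made over all genes, so nothing is read from these counts or from that of Egr1. Fosb (24.7%, 26.3%, 25.2% and 24.5%), Ier2 (43.8%, 47.7%, 45.3% and 48.2%) and Dusp1 (13.8%, 12.6%, 13.5% and 14.4%) overlapped between the generations. Thinning left out 438, 255, 372 and 320 cells of F0_8, F0_9, F1_1 and F1_mix.

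Cells with several members at once were more frequent in the founders by the mean over types, but not in most types. Of the 7 well-detected members, 4 or more were present in 20.4% of cells in F0_8 and 21.0% in F0_9, against 13.3% in F1_1 and 15.5% in F1_mix, as means over the deep types. Both founders were above both F1 suspensions in 3 of the 9 types, below in 2 and overlapping in 4, and the 2 below, Neuroectoderm/Glia and CNS Neuron, rest on 0 to 2 such cells a suspension. Without Epithelial Cell the means were 15.8% and 17.8% against 12.2% and 14.3%. The shares of cells with none of the 7 overlapped, at 20.4%, 18.9%, 20.8% and 19.5%. By type, the share with 4 or more averaged 38.1% in Epithelial Cell, 29.3% in Chondrocyte and 28.0% in Gut Mesenchyme/Amniotic Mesoderm, against 6.34% in Neuronal Progenitor, 1.11% in Neuroectoderm/Glia and 0.759% in CNS Neuron.

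**Figure D3:**
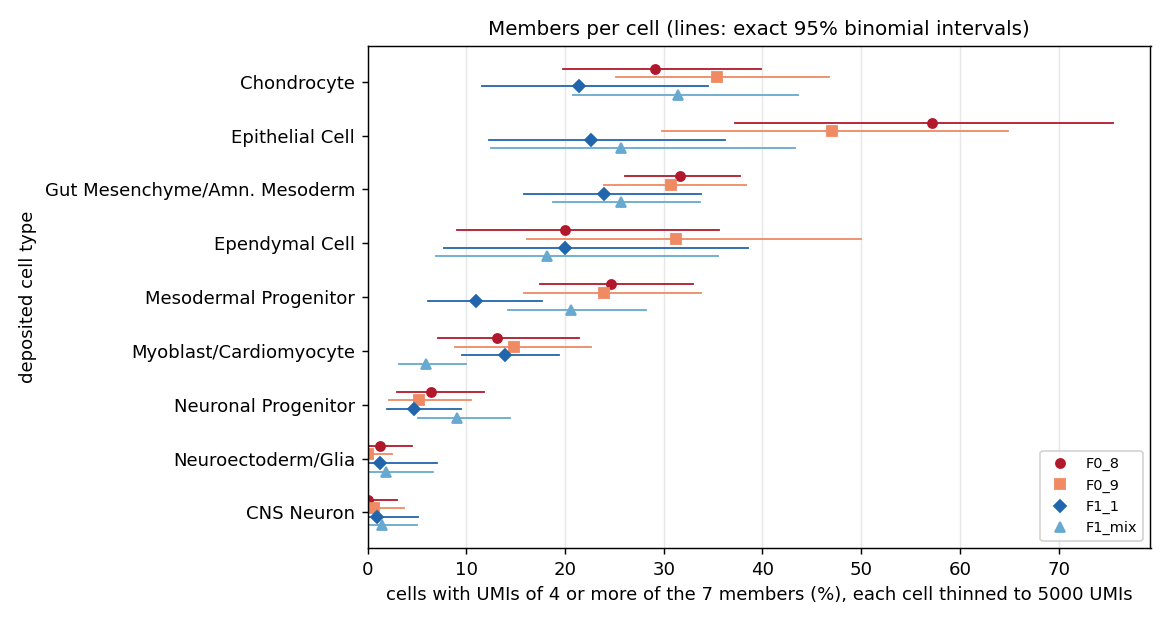
Share of cells (percent, x axis) with UMIs of 4 or more of Fos, Fosb, Jun, Junb, Egr1, Dusp1 and Ier2 after thinning to 5000 UMIs, by deep cell type (y axis) and suspension, with exact 95% binomial intervals. Epithelial Cell shows the widest gap, and in the 3 neural types no suspension exceeds 9.04%.

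Within a cell type and a suspension, a cell with one of the 7 well-detected members was, in most pairs, more likely to hold another. This was not used to choose them. Over 3975 thinned cells in 36 combinations of deep type and suspension, 48.9% of cells with Fos also had Fosb, against 14.8% of cells without Fos, and the odds ratio stratified by type and suspension was 3.72. For Fos and Egr1 the shares were 39.9% and 12.1% with an odds ratio of 3.50, and for Fos and Junb 15.7% and 4.81% with an odds ratio of 3.18. Dusp1 (2.13) and Jun (2.08) followed. These 5 members were the 5 genes with the highest odds ratios with Fos among 9224 genes detected in 5% to 95% of cells, over which the median odds ratio was 1.01 and the 95th percentile 1.26. Ier2, at 1.62, took place 23.

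The Fos and Fosb odds ratio was 3.91 and 4.18 in the founders and 3.84 and 3.10 in F1_1 and F1_mix, so both founders lay above both F1 suspensions, F0_8 by a narrow margin. That of Fos and Egr1 was 3.97, 2.98, 3.36 and 3.70 and overlapped between the generations. Both founders were also above for Fos with Jun and Dusp1, and for Fosb and Junb each with Dusp1 and Ier2. They were below for Jun and Ier2, at 1.22 and 1.05 against 1.66 and 1.30, and the remaining pairs overlapped. The same count was not made over other gene pairs, so nothing is read from it. For Egr1 the 4 genes with the highest odds ratios were Fos, Fosb, Junb and Dusp1 (3.50, 3.24, 2.43 and 2.18). Jun and Ier2 were the least coupled: their mutual odds ratio was 1.29, place 349 among the partners of Jun, and that of Jun and Junb was 1.40. Some pairs showed no such excess in a suspension: in F1_1 the odds ratio was 0.786 for Junb and Dusp1 and 0.9996 for Fosb and Ier2, and in F0_9 it was 1.05 for Jun and Ier2. These are descriptions over cells that share a library and, within a type, may still differ in subtype. Genes outside the list with the highest odds ratios with Fos were Aldh1a2 (1.93), Myt1l (1.90) and Sox2 (1.89).

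**Figure D4:**
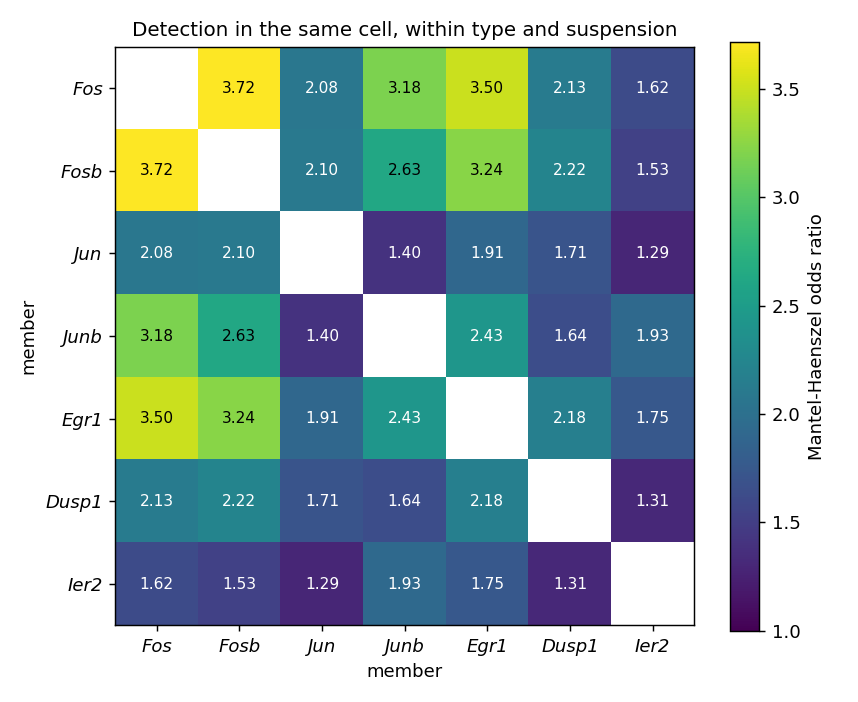
Mantel-Haenszel odds ratios, stratified by cell type and suspension, for the detection of each pair of members in the same thinned cell (both axes list the 7 members). Fos, Fosb, Junb and Egr1 form the bright block, from 2.43 to 3.72, and Ier2 has values from 1.29 to 1.93.

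Part of the member signal lay outside cells. In 53828 barcodes of 100 to 300 gene UMIs that belonged to no suspension, Egr1 stood at 0.878 (interval 0.812 to 0.946) and Fosb at 1.17 (1.09 to 1.25), above their levels over all used cells of 0.583 and 0.819. Jun (1.27), Ier2 (0.909) and Fos (0.659) were lower there than in the cells (2.16, 1.48 and 0.983). In the 1435074 barcodes of 1 to 99 gene UMIs, Ier2 turned to 2.41 (2.23 to 2.59), above the cells, and Egr1 fell to 0.631 (0.544 to 0.729), an interval that includes its level in the cells. The 4 suspensions shared this free RNA, since they were loaded together. Egr1 in CNS Neuron, at 0.0764 to 0.185, lay far under the free RNA level. The type labelled Hepatocyte, shallow and rich in mitochondrial UMIs, had Fosb at 2.32, 2.12, 2.09 and 1.94, the highest of any type, with Fos at 0.482 to 0.793. In it Egr1 was 0.519 and 0.868 in the founders against 0.355 and 0.440 in F1, and Jun 1.15 and 0.916 against 1.35 and 1.88. The share of this free RNA in each type was not tested.

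Genes of the same responses that are not members were tested between founders and F1 in the 13 types, from 7 lists. Of 846 pairs of gene and type, 2 were higher (0.236%) and 9 lower (1.06%) in the founders by edgeR's quasi-likelihood test at an adjusted p of 0.05, beside 0.492% and 0.26% over all genes, with a median log2 fold change of -0.04. Of 41 other immediate early genes, 32 were tested in some type, and 1 was higher and 2 lower. Sgk1, a serum and glucocorticoid induced kinase, stood at 0.478 and 0.381 in the founders against 0.208 and 0.241 in Gut Mesenchyme/Amniotic Mesoderm (log2 fold change 0.92 ± 0.19 SE, edgeR adjusted p = 0.0485). Klf6, a zinc finger factor, was 0.637 and 0.804 against 1.18 and 1.38 in Chondrocyte (-0.84 ± 0.18, edgeR adjusted p = 0.0377), and Plk3, a stress-responsive kinase, 0.498 and 0.768 against 1.37 and 1.25 in CNS Neuron (-1.05 ± 0.18, edgeR adjusted p = 0.0248). Klf6 ran the other way in Epithelial Cell and in Ependymal Cell, at 0.672 and 0.449 against 0.284 and 0.185 in the latter (1.25 ± 0.40, edgeR adjusted p = 0.471). It was also lower in Gut Mesenchyme/Amniotic Mesoderm, Neuroectoderm/Glia and CNS Neuron. Plk3 was also lower in Neuroectoderm/Glia, at 0.102 and 0.156 against 0.343 and 0.335 (-1.40 ± 0.27, edgeR adjusted p = 0.0627). None of these further differences was past the threshold. By DESeq2 the calls of Sgk1 (adjusted p = 0.434) and Klf6 (adjusted p = 0.471) were lost and that of Plk3 remained. The Klf6 call was also lost with no filter on low counts (edgeR adjusted p = 0.480) and in cells with under 5% mitochondrial UMIs (edgeR adjusted p = 0.0584), and that of Sgk1 without F1_1.

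Among 14 ERK feedback and target genes, 13 were tested and only Dusp6 was called. This phosphatase of ERK stood at 0.393 and 0.384 in the founders against 0.595 and 0.644 in Mesodermal Progenitor (-0.68 ± 0.14, edgeR adjusted p = 0.0327), the deep type with the largest Egr1 ratio, and by DESeq2 its adjusted p was 0.892. Of 10 p53 targets, 9 were tested, and Cdkn1a, the cell cycle inhibitor p21, was higher in CNS Neuron at 0.448 and 0.315 against 0.0764 and 0.0744 (2.30 ± 0.30, edgeR adjusted p = 0.00713), a call that remained by DESeq2. Its values ran the other way in Neuroectoderm/Glia, at 0.161 and 0.185 against 0.545 and 0.248 (-1.15 ± 0.37, edgeR adjusted p = 0.211), and in Ependymal Cell, at 0.143 and 0.166 against 0.426 and 0.246 (-1.12 ± 0.49, edgeR adjusted p = 0.718), neither past the threshold. No pair was called among the unfolded protein and integrated stress genes (118 pairs, 1 higher and 12 lower at an unadjusted p under 0.05), the oxidative and metal stress genes (61 pairs, 7 and 1) or the NF-kB and inflammatory genes (41 pairs, 0 and 2), by edgeR with the filter and all 4 suspensions or by DESeq2. With no filter on low counts edgeR called 3 unfolded protein pairs lower and 1 oxidative pair higher, and with 1 suspension left out at most 1 pair of each of these lists.

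A few abundant chaperone genes were called lower in the founders, in 3 types and not the same genes in each. The order was wider than the calls, and its difference between types was not tested. Hsp90aa1 was lower in both founders than in both F1 suspensions in every fitted type. Hsp90ab1 was so in all but Foregut and Endodermal Progenitor, where it overlapped. Hspa8 was so in all but Epithelial Cell, where it overlapped, and Foregut, where it was higher. Over all genes, 19.8% of pairs lay below in this way. Of 26 heat shock genes 25 were tested, and 6 of 234 pairs were called, all lower; at an unadjusted p under 0.05, 35 were lower (15.0%) and 4 higher (1.71%), and the median log2 fold change was -0.09. Over all genes 0.26% of pairs were called lower, and at an unadjusted p under 0.05 the shares were 4.85% lower and 5.31% higher. Hsp90ab1, the constitutive HSP90, stood at 26.5 and 27.5 against 33.7 and 31.7 in Mesodermal Progenitor (-0.28 ± 0.06, edgeR adjusted p = 0.0299) and at 31.1 and 31.3 against 39.1 and 37.7 in Gut Mesenchyme/Amniotic Mesoderm (-0.32 ± 0.04, edgeR adjusted p = 0.00782). Hsp90aa1, its inducible counterpart, was 5.08 and 5.26 against 6.84 and 6.49 in the latter type (-0.38 ± 0.06, edgeR adjusted p = 0.0151), and 13.9 and 14.1 against 16.8 and 17.2 in Neuronal Progenitor (-0.31 ± 0.04, edgeR adjusted p = 0.0278). Hspa8 and Hspd1, named after their values were seen, were lower in Neuronal Progenitor, at 16.6 and 17.6 against 21.6 and 20.5 and at 5.29 and 5.34 against 6.55 and 6.69. The founders also had lower median depths in these types, at 12200 and 12904 UMIs against 14675 and 14116 in Neuronal Progenitor, 17005 and 18197 against 20787 and 19259 in Mesodermal Progenitor, and 12354 and 13164 against 14071 and 14282 in Gut Mesenchyme/Amniotic Mesoderm. In Gut Mesenchyme/Amniotic Mesoderm the share of ribosomal protein UMIs was 16.21% and 16.05% against 16.71% and 16.37%, and in Mesodermal Progenitor that of mitochondrial UMIs 2.37% and 2.41% against 2.36% and 2.19%. The other measure overlapped in both types. Mitochondrial UMIs were 2.79% and 2.82% against 2.84% and 2.65% in the former, and ribosomal protein UMIs 14.81% and 15.37% against 15.73% and 15.30% in the latter. In Neuronal Progenitor the founders' share of ribosomal protein UMIs was lower (14.1% and 14.1% against 15.6% and 15.0%) and of mitochondrial UMIs higher (2.05% and 2.01% against 1.78% and 1.83%). The part of these differences in the chaperone levels was not tested. By DESeq2 the 3 calls in Neuronal Progenitor were lost and the other 3 remained. The Hspd1 call was also lost with scaling by library size alone and without F1_mix, and that of Hsp90ab1 in Mesodermal Progenitor without F1_1. Hsp90ab1 and Hsp90aa1 are paralogs, and how reads shared between near-identical copies were counted is uncertain. All 11 calls of related genes were lost without F0_8, and 8 of the 11 without F0_9, where those of Hspa8, Plk3 and Cdkn1a remained.

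**Figure D5:**
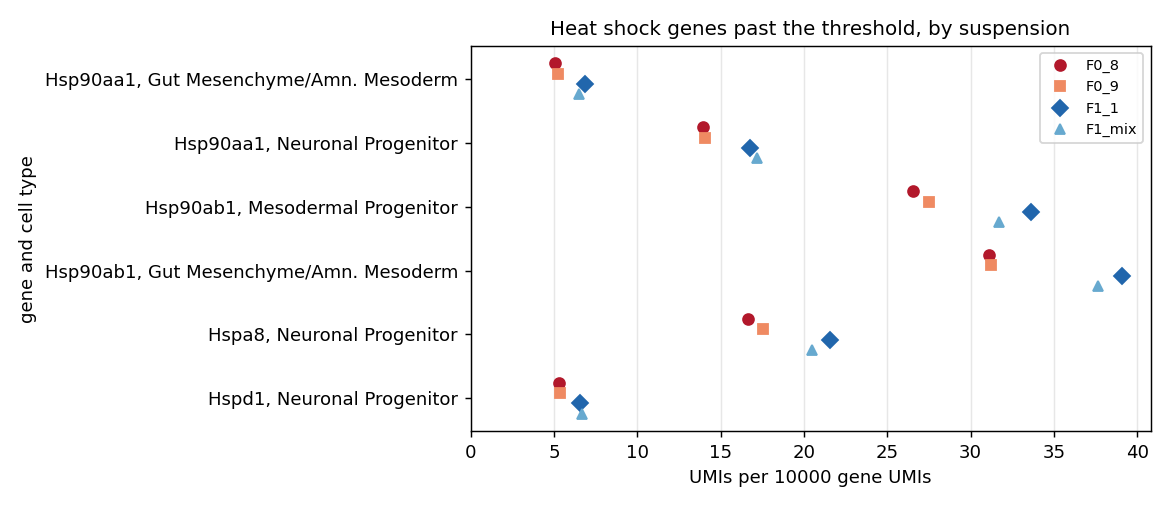
Levels (UMIs per 10000 gene UMIs, x axis) of the heat shock genes past an adjusted p of 0.05, 1 row for each gene and cell type (y axis) and 1 point a suspension. In all 6 rows the founders F0_8 and F0_9 lie below F1_1 and F1_mix, from 5.08 and 6.84 at the low end to 31.1 and 39.1 at the high end.

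The genes whose levels followed the mean log2 level of the members most closely over all 64 pairs of type and suspension, after subtraction of each type's mean, were Eif3f (r = 0.64), Rps26 (0.59), Tor2a (0.58), Rps15a (0.57), Sfrp2 (0.57), Rpl28 (0.57), Ndufab1 (0.57), Rps28 (0.57), Rps27a (0.57) and Ciao2a (0.56). Of these 10, 5 are ribosomal protein genes, and the 64 points share 1 library and include the shallow types. With the 36 points of the deep fitted types alone the list was different, led by Zfp68 (0.70), Unc5d (0.69) and Eif1b (0.68), and Sfrp2 (0.66) was in both. Members themselves reached 0.73 for Jun, 0.71 for Junb, 0.68 for Fos, 0.63 for Dusp1, 0.57 for Ier2, 0.42 for Fosb, 0.38 for Egr1 and 0.10 for Atf3 over the 64 points. Over the 36 points of the deep fitted types they reached 0.85 for Junb, 0.78 for Fos, 0.77 for Egr1, 0.72 for Jun, 0.70 for Fosb, 0.62 for Ier2, 0.52 for Dusp1 and -0.02 for Atf3. Each member is itself part of the mean it was compared with, so part of its r is built in over either set of points. The values of members and of genes outside the list are therefore not comparable.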

How the data were processed

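Single-cell RNA of 4 pooled suspensions was measured in 1 droplet library (3′ kit v3.1, no strand or paralog correction added here). The deposited UMI counts per gene and barcode were made by the authors with Cell Ranger on GRCm38 with EGFP, raw and without normalization. Cell types were taken from the deposited cell table, and the 20 other columns of that table, with processed values, were not used, so the SoupX and RECODE corrections described in the study's methods do not enter the counts; doublet removal was not repeated. Suspensions come from the deposited barcode tables. Counts were summed per cell type and suspension in types with 20 or more cells in each. Levels are UMIs per 10000 gene UMIs. edgeR 4.0.16 (glmQLFit, glmQLFTest, TMM, filterByExpr) in R 4.3.3 compared founders with F1, with Benjamini-Hochberg adjustment over all genes of a type; DESeq2 1.42.0 was an alternative. The test was checked on simulated data, drawn with the same dispersion for every gene. Shares recovered are of the changed genes that passed the filter on low counts. In Gut Mesenchyme/Amniotic Mesoderm (11076 genes) 94.6% of such genes changed 4-fold were recovered, and 46.8% of those changed 2-fold. Of 2-fold changes 27.1% were recovered in Ependymal Cell (7385 genes) and 26.7% in Foregut (2136 genes), where 60 of the 100 changed genes passed the filter. Cells were thinned to 5000 UMIs with a fixed seed for shares and odds ratios. Other calculations used Python 3.11.15. A 0 count allows up to 3 counts of the total. The members and the gene lists were chosen with earlier results of these data known. Named genes are all members, the genes of each related list past an adjusted p of 0.05 in at least 2 types (at most 8 a list; otherwise those past it in 1), and the 10 genes of 200 or more UMIs most correlated with the members. Alternatives were other denominators, scalings, filters, sets of cells and types, and leaving out each suspension.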

Additional observations from a re-analysis of the deposited data

Results flagged for a closer look

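For 5 of the 7 members that passed the filter on low counts, founders and F1 stood in opposite order in different deep cell types, with no overlap among the 4 suspensions. Hspa1a and Hspa1b did so too, but on very few UMIs, and are left out here. The difference between the types was not tested, and Fosb in Neuroectoderm/Glia rests on 9 founder and 21 F1 UMIs. None of these pairs of member and type was past an adjusted p of 0.05 in the edgeR fit. Fosb had a ratio of founders to F1 of 1.63 in Epithelial Cell and of 0.285 in Neuroectoderm/Glia. For Jun the ratios in the same types were 1.80 and 0.765, and for Ier2 1.38 and 0.619. Junb had a ratio of 3.33 in Ependymal Cell and of 0.448 in Neuroectoderm/Glia. Dusp1 had a ratio of 1.80 in Gut Mesenchyme/Amniotic Mesoderm and of 0.766 in Mesodermal Progenitor. These are the highest and lowest of the types in which the generations did not overlap, and they were picked for that.

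The 328 barcodes of the suspensions that carry no deposited cell type also held member RNA: summed, 6.91 and 4.30 UMIs per 10000 in the founders F0_8 and F0_9 and 5.62 and 4.78 in F1_1 and F1_mix, beside 7.19, 7.21, 5.89 and 6.18 in the cells with a type and 5.31 in free RNA.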

How the results depend on the processing

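Atf3, Hspa1a and Hspa1b had too few UMIs to pass the filter on low counts in any type. The 41 pairs with both founders above both F1 suspensions, beside 20 below, fell to 24 of 90 in types of 50 or more cells, beside 18 below, and were 4 of 30 in the neural types, beside 8. Leaving out 1 suspension gave 50 to 60 above and 27 to 36 below, since groups overlap less often with fewer suspensions. The median log2 ratio of the summed members was 0.15 over 13 types. It turned to -0.013 in types of 50 or more cells and to -0.11 in the neural types, was 0.41 in the deep types outside them, and ranged from 0.04 to 0.19 when 1 suspension was left out. The divisions by neural type were chosen after seeing the data. The 4 member calls became 14 with no filter on low counts, which tests 120 pairs in place of 69, and 4 to 12 with 1 suspension left out, 12 without F1_mix. The 11 related calls became 5 by DESeq2, 38 with no filter, and 4 to 25 with 1 suspension left out, 4 without F0_8 and 25 without F1_mix; the lone suspension of an arm is then assumed to vary like the others, and the cause was not tested. Of 110 values of single related calls under alternatives, 79 stayed past the threshold and 31 did not, and none changed direction. No paired analysis was possible because no replicate number or animal joins a founder suspension to an F1 suspension, and the 1 library they share holds all 4.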
